A study of Homo sapiens with 1 sample.

Results

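A set of 9 genes that encode intermediate filament proteins was followed through 1 single-cell library: the keratins KRT8, KRT18 and KRT19, the nuclear lamins LMNA, LMNB1 and LMNB2, and the neuronal filament genes INA, NEFL and NEFM. They were taken by symbol, and all 9 of 9 were found among the 33538 genes of the count table. The library was made from H9, a widely used embryonic stem cell line of human origin, which carried the human form of the enhancer HAR123 (hHAR123, genotype WT). Differentiation into neural progenitor cells (NPCs) took 2 days with Rock inhibitor, Dorsomorphin and SB431542, 5 days as rotated embryoid bodies with Dorsomorphin and SB431542, and 7 days on Matrigel in medium with N2 and Gem21. Independent clones had been pooled by the authors ahead of loading, and the barcodes do not tell them apart. All groups described are groups of cells from this 1 library, no test was run, and every interval given is a 95% interval for counting error only.

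Intermediate filaments are rope-like polymers of rod-shaped proteins, and each cell type assembles its own set. Keratins form obligate pairs of a type II chain, such as KRT8, with a type I chain, such as KRT18 or KRT19, and are the filaments of simple epithelia and of the earliest embryonic epithelia. Lamins line the inner face of the nuclear envelope: B-type lamins are made by nearly all cells, while A-type lamins, from LMNA, are scarce in stem cells and increase as tissues stiffen and cells mature. Neurofilament subunits and alpha-internexin (INA) co-assemble in axons, and INA is known to appear early in newborn neurons.

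The quality filter (2000 to 10000 detected genes and a mitochondrial share of unique molecular identifiers, UMIs, below 0.1) kept 13925 of 14726 barcodes, with a median of 17900 UMIs per cell (3167 to 118188). Cells were divided by their content of TAGLN, which encodes the actin-binding protein transgelin, in UMIs per 10000: 10590 cells lay below 5, 719 from 5 to 10, 1096 from 10 to 30 and 1414 above 30. A further 106 newborn neuron-like cells formed 1 of 11 clusters, made without the 9 genes, in which all 12 of 12 newborn neuron markers reached 20 CPM (UMIs per 1000000 UMIs) and 3-fold the level of the other cells. These states differ in depth: the median cell had 16348 UMIs in the band below 5, 22146 from 5 to 10, 30604 from 10 to 30, 42034 above 30 and 13414 among the neuron-like cells. They also differ in called cell cycle phase, with 32.2% of cells in G2/M below 5 and 48.1% above 30, and with 88.7% of neuron-like cells in G1. All 10 of 10 forebrain progenitor markers passed 200 UMIs, as did 11 of 12 newborn neuron markers, so passing is no check of the NPC label. SOX2, a neural progenitor transcription factor, stood at 436 CPM below 5 and 129.6 above 30. Of 6 pluripotency markers, 2 passed 200 UMIs: LIN28A, which encodes an RNA-binding protein, stood at 226 CPM below 5 and 214 above 30, and DPPA4 at 129.6 and 71.7 CPM, while the defining factors POU5F1 and NANOG stood at 0.0981 and 0.434 CPM below 5.

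Cluster 9 stood apart, with 169 cells, a median of 9615 UMIs and a median mitochondrial share of 0.142%, against 5.16% over all kept cells. It holds 97 of the 1414 cells above 30. Leaving out the 189 kept cells with a mitochondrial share under 1% changed none of the member counts given below. Close to the boundaries, 217, 202 and 209 cells lay within 10% of the TAGLN limits 5, 10 and 30, and the bands are ranges of a single measure and not cell types. From below 5 to above 30, all 10 of 10 contractile markers were at least 2-fold higher (summed level 1456 and 13572 CPM) and 7 of 10 forebrain markers at least 2-fold lower (2388 and 1322 CPM). Of 8 crest and mesenchyme markers, 5 passed 200 UMIs, 3 (TWIST1, LUM and COL1A2) were at least 2-fold higher and 0 at least 2-fold lower. The summed level over all 8 was 15.8 and 67.8 CPM, of which COL1A2 made 6.27 and 50.9 CPM. Among all tested genes, 7.34% were at least 2-fold higher and 22.8% at least 2-fold lower in this comparison. The contractile and crest lists partly hold genes that the study picked on its own libraries. The part of depth, phase and these other markers in the levels of the 9 genes was not tested beyond the values given below.

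KRT8 (type II, chr12:52897187-52949954, minus strand) and KRT18 (type I, chr12:52948871-52952906, plus strand) are neighbours on chromosome 12 whose GENCODE spans on GRCh38 overlap by 1084 bases on opposite strands. KRT19 (type I) lies at chr17:41523617-41528308 on the minus strand. The lamin genes lie at chr1:156082573-156140081 on the plus strand (LMNA), chr5:126776623-126837020 on the plus strand (LMNB1) and chr19:2427638-2456959 on the minus strand (LMNB2). INA lies at chr10:103277138-103290346 on the plus strand. NEFM (chr8:24913758-24919098, plus strand) and NEFL (chr8:24950955-24956721, minus strand) are neighbours on chromosome 8. All of these are protein-coding. The annotation names 51 pseudogenes after KRT8 and 68 after KRT18, none of which has a row in the count table, so the counts of both genes are uncertain to the extent that reads map equally well to such copies. The authors state default parameters for the counting but do not name the strand setting. KRT8, KRT18, INA, NEFL and NEFM each overlap an opposite-strand gene of the count table.

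KRT8 and KRT18 were the members with the largest excess in TAGLN-rich cells. KRT18 stood at 63.1 CPM (61.9 to 64.2) in the band below 5, 178 CPM (172 to 184) from 5 to 10, 314 CPM (308 to 319) from 10 to 30 and 357 CPM (352 to 362) above 30. KRT8, its pairing partner, stood at 62.8 CPM (61.6 to 63.9), 140.0 CPM (135 to 146), 232 CPM (227 to 236) and 258 CPM (254 to 262) in the same order of bands. Each step up in band was thus a step up in both keratins, with no overlap of intervals between neighbouring bands. The ratio of the highest to the lowest band was 5.66 (5.54 to 5.79) for KRT18 and 4.10 (4.01 to 4.20) for KRT8, which placed them at the 97.7th and 96.9th percentile of 16780 genes with at least 200 UMIs. The band above 30 held 19.8% of all UMIs but 44.7% of KRT18 UMIs and 40.4% of KRT8 UMIs.

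**Figure D1:**
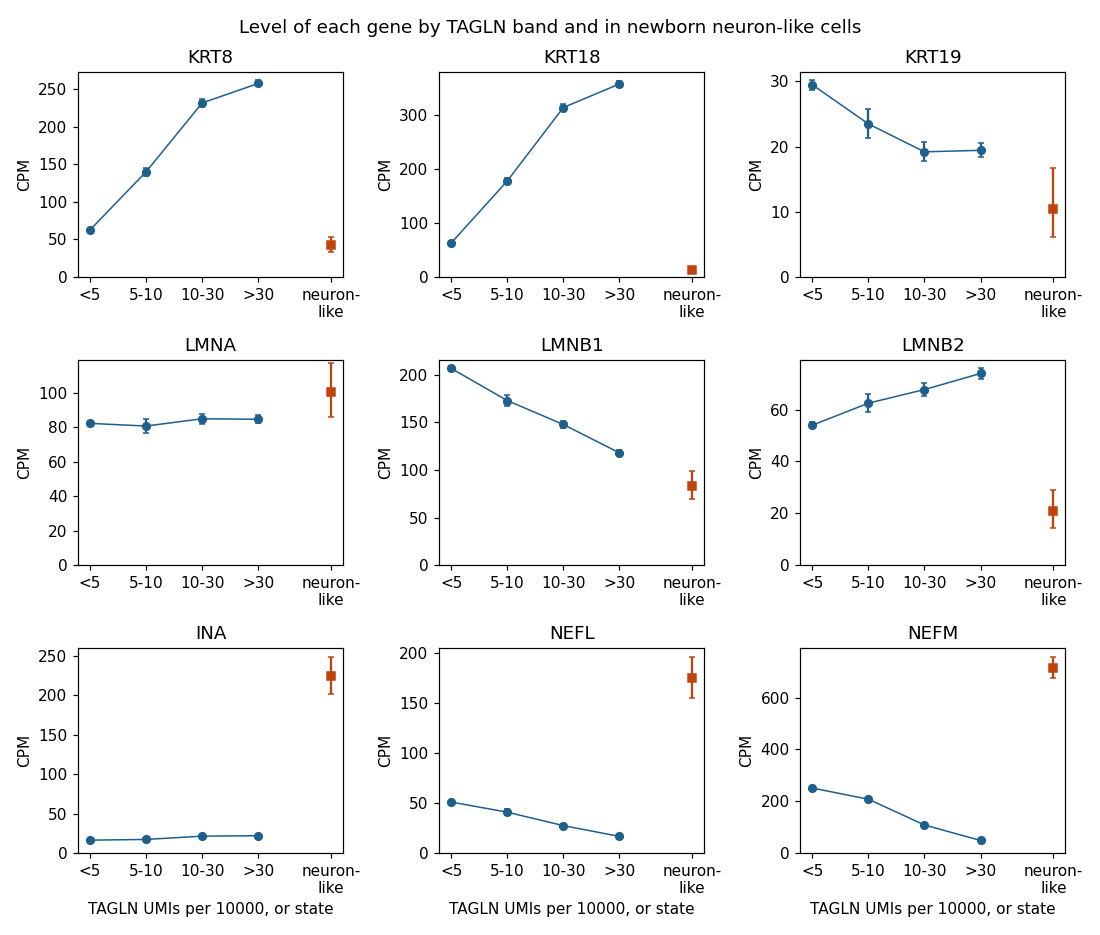
Each panel shows 1 gene, with its pooled level in CPM (linear axis from 0) on the y axis and the TAGLN band in UMIs per 10000, or the newborn neuron-like state, on the x axis; points are pooled levels of 1 library, bars are exact 95% Poisson intervals, circles are bands and the square is the neuron-like group. KRT18 climbs from 63.1 to 357 CPM over the bands and NEFM descends from 251 to 48.8, while LMNA stays between 80.8 and 85.0 CPM.

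Of the 9 genes, 2 (KRT8 and KRT18) were at least 2-fold higher above 30 than below 5, where 7.34% of all tested genes were. Another 2 (NEFL and NEFM) were at least 2-fold lower, where 22.8% of all tested genes were, so the share of members on the lower side was near the background. The median log2 ratio of all tested genes was -0.35 in this comparison, and the median of the 9 genes was 0.04. Scaling by the median ratio, which sets the median of all genes to 0, left both counts at 2 and gave 10.9% higher and 13.9% lower among all tested genes. Because cells above 30 carried more UMIs, the number of UMIs per cell gives another picture for some members: per cell, KRT18 was 13.7-fold and KRT8 9.91-fold higher, and the LMNB1 and KRT19 ratios turned from below 1 in CPM to 1.38 and 1.59. On that scale every gene is multiplied by the same depth factor, and the median log2 ratio of all tested genes was 0.92.

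Finer bins of TAGLN showed where the keratin difference lay. KRT18 was at 50.9 CPM in the cells below 1 TAGLN UMI per 10000, 79.1 from 1 to 2, 127 from 2 to 5, 294 from 10 to 20 and 340.5 from 20 to 30. From there it varied between 323 CPM, in the cells at 80 or more, and 372 CPM, at 50 to 80. KRT8 went from 53.9 CPM below 1 to 254 at 20 to 30, and then lay between 250.1 and 268. Both keratins therefore were already higher within the band below 5 and differed little beyond 20 TAGLN UMIs per 10000.

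**Figure D2:**
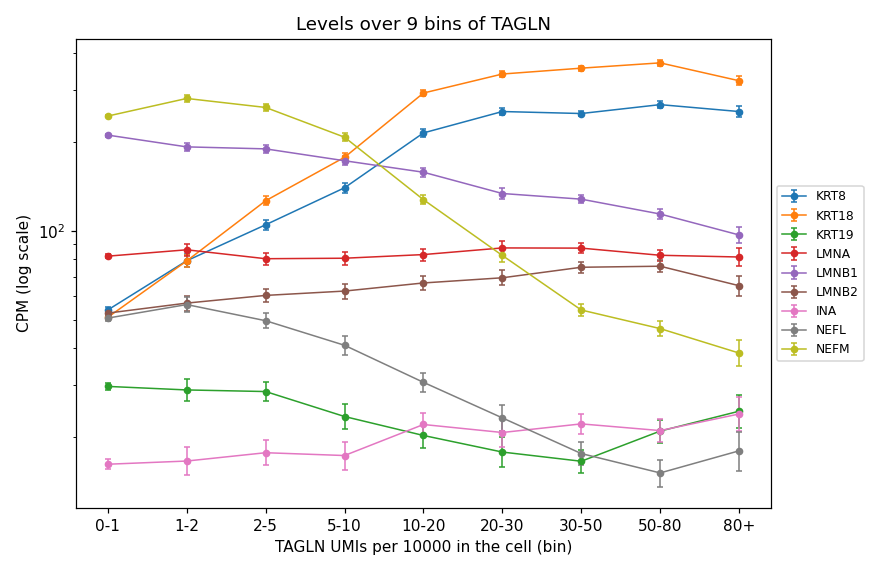
Pooled level in CPM (log axis) of the 9 genes, 1 line each, over 9 bins of TAGLN UMIs per 10000; bars are exact 95% Poisson intervals. KRT8 and KRT18 level off from the bin 20 to 30, at 254 and 340.5 CPM, and the NEFM line crosses below both, from 281 CPM at 1 to 2 to 38.5 CPM at 80 and above.

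The difference was also seen as a share of cells. With every cell thinned to 5000 UMIs, a KRT18 UMI was found in 23.0% (22.2 to 23.9%) of cells below 5, 45.3% from 5 to 10, 59.1% from 10 to 30 and 70.0% (67.6 to 72.4%) above 30. The neuron-like cells, a state not known for keratin, gave a KRT18 UMI in 2.86% (0.593 to 8.12%) of cells (3 of 105). For KRT8 the shares were 24.8% below 5, 64.7% above 30 and 19.0% (12.04 to 27.9%) in neuron-like cells. The share of free RNA in these values was not tested, and the median depths before thinning were 16348 UMIs below 5, 42034 above 30 and 13414 in neuron-like cells. Without thinning, KRT18 was found in 54.7% of cells below 5, 97.3% above 30 and 11.3% of neuron-like cells, and KRT8 in 58.0%, 98.4% and 41.5%. The 10% of cells richest in each gene held 67.0% of all KRT18 UMIs and 58.3% of all KRT8 UMIs.

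The keratin difference was present in each called phase and in a narrower range of depth. Within phases, the ratio of KRT18 above 30 to below 5 was 5.71 in G1, 6.42 in S and 5.27 in G2/M, and that of KRT8 was 4.06, 4.44 and 4.15. In the 11703 cells with 10000 to 40000 UMIs, the log2 ratios were 2.36 for KRT18 and 1.95 for KRT8, against 2.50 and 2.04 over all cells. The pair was not in a fixed proportion: the library held 1.00 (0.980 to 1.03) KRT18 UMIs per KRT8 UMI below 5 and 1.39 (1.36 to 1.41) above 30. In neuron-like cells, with 20 KRT18 UMIs and 69 KRT8 UMIs, that proportion was 0.290 (0.167 to 0.483), against 1.25 (1.24 to 1.27) over all kept cells. The number of KRT19 UMIs per KRT8 UMI in these cells was 0.246 (0.136 to 0.424), an interval that holds the 0.204 over all kept cells. Across thinned single cells, KRT8 and KRT18 had a Pearson r of 0.13 below 5 (10566 cells) and 0.33 above 30 (1412 cells), values given as a description of sparse counts from 1 library.

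KRT19, a type I keratin that lacks the usual tail domain, did not follow KRT8 and KRT18. It stood at 29.5 CPM (28.7 to 30.2) below 5, 23.5 CPM (21.3 to 25.8) from 5 to 10, 19.2 CPM (17.8 to 20.6) from 10 to 30 and 19.4 CPM (18.3 to 20.5) above 30. Its ratio above 30 to below 5 was 0.659 (0.619 to 0.701) in CPM but 1.59 in UMIs per cell, so its direction depended on the scale. Within phases the CPM ratio was 0.714 (0.610 to 0.833) in G1, 0.805 (0.731 to 0.886) in S and 0.606 (0.549 to 0.669) in G2/M. In cells with 10000 to 40000 UMIs its log2 ratio was -0.00, against -0.60 over all cells, so in that window no difference was left. That window leaves out deeper cells, and the median cell above 30 had 42034 UMIs. By phase KRT19 was highest in S, with 32.9 CPM (31.9 to 34.0) against 24.8 CPM (23.6 to 26.1) in G1 and 20.4 CPM (19.6 to 21.1) in G2/M. The ratio of S to G1 was 1.20 (1.12 to 1.29) within the band below 5, 1.89 (1.46 to 2.47) from 5 to 10, 2.03 (1.63 to 2.55) from 10 to 30 and 1.36 (1.15 to 1.61) above 30. The excess in S was thus found in all 4 of 4 bands.

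Over the clusters, KRT18 was highest in cluster 9 (396 CPM) and cluster 3 (381 CPM), next in cluster 8 (199.7 CPM), and between 31.0 and 95.2 CPM in clusters 1, 2, 4, 5, 6, 7 and 10. Cluster 3 holds 1115 of the 1414 cells above 30, cluster 8 holds 167 and cluster 9 holds 97. KRT19 was highest in cluster 8 (41.1 CPM) and cluster 5 (40.9 CPM) and, apart from the neuron-like cluster, lowest in cluster 3 (15.1 CPM). KRT8 and KRT18 were thus high and KRT19 low in cluster 3, while all 3 keratins were above their level over all kept cells in cluster 8.

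**Figure D3:**
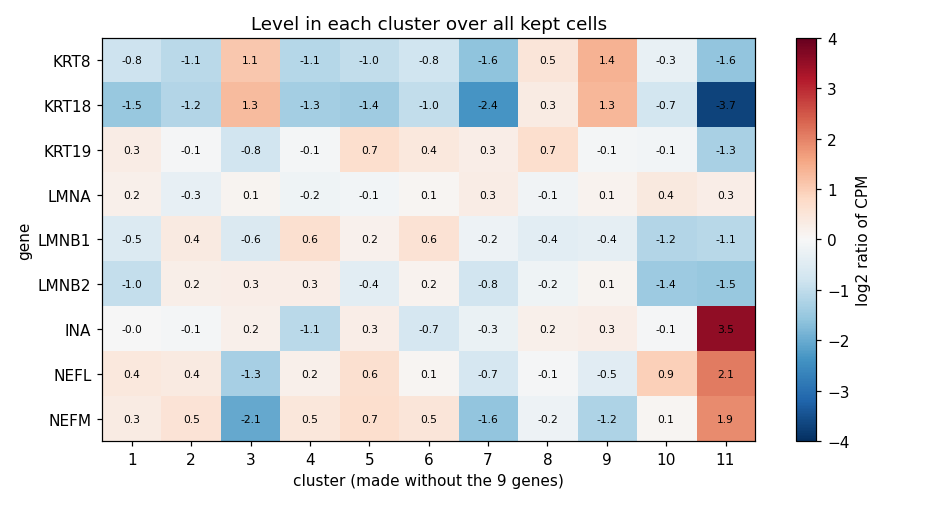
Log2 ratio of the pooled CPM in each of the 11 clusters (x axis) to that over all kept cells, for each gene (y axis), with the value printed in each cell and red for higher, blue for lower; cluster 11 holds the newborn neuron-like cells. KRT8 and KRT18 are red in clusters 3, 8 and 9, NEFM is blue in clusters 3, 7, 8 and 9, and the 3 neuronal filament genes are red together in cluster 11.

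Epithelial markers were low beside KRT8 and KRT18. Of 12 epithelial markers, 5 passed 200 UMIs, of which 1 was at least 2-fold higher above 30 than below 5 and 2 at least 2-fold lower, and the summed level of all 12 was 19.3 CPM below 5 and 14.3 CPM above 30. Among all tested genes, 7.34% were at least 2-fold higher and 22.8% at least 2-fold lower in this comparison. CLDN4, which encodes a claudin of tight junctions, stood at 1.85 CPM below 5 and 5.66 above 30, while CLDN3, another claudin gene, stood at 9.07 and 3.03 and RAB25, which encodes a small GTPase of epithelial membrane traffic, at 1.08 and 0.272. CDH1, which encodes E-cadherin, stood at 0.188 CPM over all kept cells and EPCAM at 4.54 CPM. Among 15 other cytoplasmic intermediate filament genes, 6 passed 200 UMIs, of which 4 (VIM, NES, SYNM and BFSP1) were at least 2-fold higher above 30 than below 5 and 0 at least 2-fold lower. VIM, which encodes the mesenchymal and neural progenitor filament vimentin, stood at 786 CPM below 5 and 3786 CPM above 30. NES, which encodes the neural progenitor filament nestin and is also on the forebrain list, stood at 213 and 708 CPM, and KRT10, a type I keratin of differentiated epidermis, at 105 and 149 CPM. The median log2 ratio of the 6 genes was 1.56, against -0.35 for all tested genes.

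Of 15 genes whose products tie filaments to junctions and to other cytoskeletal systems, 12 passed 200 UMIs. In CPM, 2 (PKP2 and EPPK1) were at least 2-fold higher above 30 than below 5 and 0 were at least 2-fold lower. Among all tested genes, 7.34% were at least 2-fold higher and 22.8% at least 2-fold lower. The median log2 ratio was 0.52 for the 12 genes and -0.35 for all tested genes. PKP2, which encodes the desmosomal plaque protein plakophilin 2, stood at 20.003 CPM below 5 and 57.5 above 30, and MACF1, which encodes a giant actin and microtubule linker, at 488 and 841. DSP, which encodes desmoplakin, the anchor of keratins at desmosomes, stood at 89.6 and 77.7 CPM, and the desmosomal cadherin gene DSG2 at 35.6 and 29.98.

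RefSeq promoters are shown for LMNB2, as a lamin gene with higher levels in S and G2/M, and for INA, which among the 9 genes had the largest excess in neuron-like cells. These were the 2 of 9 genes with a single promoter entry that begins at the start of the GENCODE canonical transcript. LMNA has 3 entries, LMNB1 has 2 and KRT8 has 1, and these are not shown, since they are several for a gene or begin elsewhere. Each line gives the 250 bases before the start site on GRCh38.p14, 5′ to 3′ on the strand of the gene, and capitals mark matches to 1 of 7 motifs searched on both strands. The GC box was searched as GGGCGG, the E2F motif of replication genes as GCGGGAA, the cell cycle homology region of mitotic genes as TTTGAA, the TATA box by the letters TATAAA, the AP-1 motif by the letters TGANTCA, and the TEAD motif by the letters GGAATG, beside the CCAAT box.
LMNB2 (chr19:2456960-2457209, minus strand): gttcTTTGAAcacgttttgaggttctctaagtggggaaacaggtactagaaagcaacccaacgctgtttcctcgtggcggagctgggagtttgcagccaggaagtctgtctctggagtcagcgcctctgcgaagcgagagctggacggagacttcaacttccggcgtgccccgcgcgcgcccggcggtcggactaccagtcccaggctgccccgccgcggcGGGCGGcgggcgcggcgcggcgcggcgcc
INA (chr10:103276888-103277137, plus strand): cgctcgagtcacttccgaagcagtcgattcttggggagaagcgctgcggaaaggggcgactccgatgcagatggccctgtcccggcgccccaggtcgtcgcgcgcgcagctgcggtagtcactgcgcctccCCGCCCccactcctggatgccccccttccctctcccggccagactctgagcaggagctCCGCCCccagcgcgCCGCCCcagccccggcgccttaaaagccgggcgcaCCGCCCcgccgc
Counted from the start site, the LMNB2 window holds a cell cycle homology match with its first base at -246 and a GC box at -29, and the INA window holds GC boxes at -119, -61, -47 and -12. Of 35116 RefSeq promoter entries of the same length, 42.6% hold a GC box, 32% a CCAAT box, 5.52% the E2F letters, 13.3% the cell cycle homology letters, 10.7% a TATA box, 6.57% the AP-1 letters and 11.9% the TEAD letters. These are matches of letters only.

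Both B-type lamins were higher in cells called S or G2/M than in cells called G1. LMNB1 stood at 82.6 CPM (80.3 to 84.9) in G1, 189 CPM (186 to 191) in S and 215 CPM (213 to 218) in G2/M. LMNB2 stood at 33.3 CPM (31.9 to 34.8), 57.4 CPM (56.0 to 58.8) and 74.4 CPM (72.9 to 75.8) in the same order. LMNA ran the other way, with 106 CPM (103 to 108) in G1, 77.6 CPM (76.0 to 79.2) in S and 77.7 CPM (76.2 to 79.2) in G2/M. The ratio of G2/M to G1 was 2.60 (2.53 to 2.68) for LMNB1, 2.23 (2.13 to 2.34) for LMNB2 and 0.736 (0.714 to 0.760) for LMNA. In UMIs per cell, where the deeper G2/M cells weigh more, the LMNA ratio turned to 1.21, so its lower level in G2/M is a statement about its share of UMIs.

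LMNB1 and LMNB2 were the 2 members at least 2-fold higher in G2/M than in G1, where 3.49% of all tested genes were, and 0 members were at least 2-fold lower, where 2.96% of all tested genes were. In S against G1, 1 member, LMNB1 with a ratio of 2.29 (2.22 to 2.36), was at least 2-fold higher, where 4.61% of all tested genes were, and 0 were at least 2-fold lower, where 1.41% of all tested genes were. The median log2 ratio of the 9 genes was -0.22 in G2/M over G1, against -0.03 for all tested genes. No member is among the 43 S genes or 54 G2/M genes that called the phases. In 1134 cells the larger of the 2 scores lay within 0.05 of 0, the boundary between G1 and the other phases. Cells near the boundary between S and G2/M were not counted.

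The phase pattern of the lamins recurred in every TAGLN band. The ratio of G2/M to G1 for LMNB1 was 2.68 below 5, 2.95 from 5 to 10, 3.07 from 10 to 30 and 2.97 above 30. For LMNB2 it was 2.40, 2.27, 2.02 and 1.78, and for LMNA 0.721, 0.750, 0.726 and 0.750. Within a phase, in turn, LMNB1 was lower with more TAGLN: its level in G1 was 98.1 CPM below 5 and 44.5 CPM above 30, and its level in G2/M was 263 and 132 CPM.

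**Figure D4:**
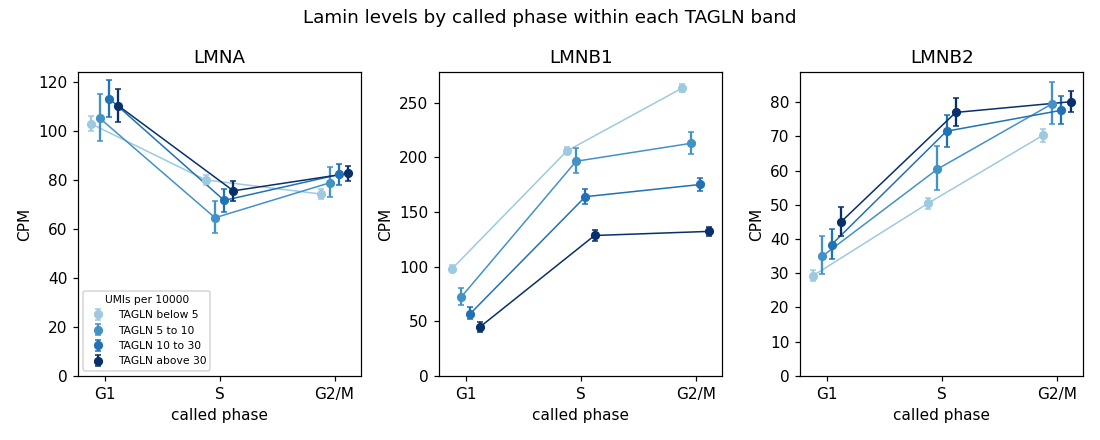
Pooled CPM (linear axis from 0) of LMNA, LMNB1 and LMNB2 in cells called G1, S and G2/M, with 1 line per TAGLN band in UMIs per 10000 (darker for more TAGLN) and exact 95% Poisson intervals. LMNA is highest in G1 in all 4 bands, LMNB1 is lowest in G1 in all 4, and within each phase the LMNB1 lines are ordered from 263 CPM in the lowest band to 132 CPM in the highest, as read at G2/M.

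Across the bands as a whole, LMNB1 stood at 207 CPM (205 to 209) below 5, 173 CPM (167 to 179) from 5 to 10, 148 CPM (144 to 152) from 10 to 30 and 118 CPM (115 to 121) above 30, although the share of G2/M cells was larger above 30. The ratio was 0.571 (0.557 to 0.585) in CPM but 1.38 in UMIs per cell. LMNB2 went the other way in CPM, from 54.0 CPM (52.99 to 55.1) to 74.0 CPM (71.9 to 76.1), a ratio of 1.37 (1.32 to 1.42). Over all phases together, LMNA did not differ beyond counting error between the ends of the range. It stood at 82.3 CPM (81.1 to 83.6) below 5 and 84.7 CPM (82.5 to 87.0) above 30, a ratio of 1.03 (0.997 to 1.06). The direction of the LMNA ratio was not stable either, with log2 values of 0.04 in the pooled counts, -0.23 in cells with 10000 to 40000 UMIs and -0.11 in thinned cells. Within phases the LMNA ratio was 1.07 (0.999 to 1.15) in G1, 0.944 (0.890 to 1.002) in S and 1.11 (1.06 to 1.16) in G2/M.

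The proportion of A-type to B-type lamin was highest in G1. The library held 1.05 (1.00 to 1.10) LMNA UMIs per LMNB1 UMI in G1 cells below 5 and 2.47 (2.21 to 2.78) in G1 cells above 30. In G2/M the same proportions were 0.282 (0.274 to 0.290) and 0.625 (0.596 to 0.654). Neuron-like cells, most of them called G1, had 1.21 (0.955 to 1.52), which overlaps the interval of the G1 cells below 5. Libraries of this kind count the 3′ end of each molecule once, and capture can differ between the 2 transcripts, so the change of the proportion between groups can be read but not its absolute value.

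All 20 of 20 genes of lamin processing and the nuclear envelope passed 200 UMIs. Above 30 against below 5, 7.34% of all tested genes were at least 2-fold higher and 22.8% at least 2-fold lower. The median log2 ratio was 0.01 for the 20 genes and -0.35 for all tested genes. Of the 20, 1 was at least 2-fold higher and 1 at least 2-fold lower. The former was SYNE1 and the latter SYNE2, which encode nesprin 1 and nesprin 2, giant proteins that link the nuclear envelope to the cytoskeleton: SYNE1 stood at 19.1 CPM below 5 and 69.3 above 30, and SYNE2 at 606 and 163. EMD, which encodes the lamin-binding protein emerin, stood at 32.2 and 58.3 CPM. In G2/M against G1, 3.49% of all tested genes were at least 2-fold higher and 2.96% at least 2-fold lower. Of the 20, 3 were at least 2-fold higher and 0 at least 2-fold lower. These were SUN2, which encodes an inner nuclear membrane protein, TMPO, which encodes lamina-associated polypeptide 2, with 134 CPM in G1 and 357 in G2/M, and LBR, which encodes the lamin B receptor, with 93.0 and 208 CPM. TMPO and LBR are both among the genes that called G2/M, so their ratios follow from the calls.

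The neuronal filament genes were not alike across the bands. NEFM, the medium neurofilament subunit, stood at 251 CPM (249 to 253) below 5, 208 CPM (201 to 215) from 5 to 10, 108 CPM (105 to 112) from 10 to 30 and 48.8 CPM (47.1 to 50.6) above 30. NEFL, the light subunit on which neurofilaments are built, stood at 51.1 CPM (50.1 to 52.1), 40.9 CPM (38.1 to 43.96), 27.5 CPM (25.9 to 29.2) and 16.7 CPM (15.7 to 17.7). INA, by contrast, stood at 16.4 CPM (15.8 to 17.0), 17.3 CPM (15.5 to 19.3), 21.5 CPM (20.04 to 23.0) and 22.0 CPM (20.9 to 23.2). The ratio above 30 to below 5 was 0.194 (0.187 to 0.202) for NEFM, 0.327 (0.306 to 0.348) for NEFL and 1.34 (1.26 to 1.43) for INA, and in UMIs per cell NEFM (0.469) and NEFL (0.789) still lay below 1. In the 11703 cells with 10000 to 40000 UMIs the log2 ratio of NEFL was -0.87, short of 2-fold, against -1.61 over all cells.

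NEFM UMIs were also found outside the neuron-like state, and as for the keratins the part of free RNA in such shares, and in those of INA, was not tested. A NEFM UMI was present in 50.5% (49.5 to 51.4%) of thinned cells below 5, 39.6% from 10 to 30 and 21.9% (19.8 to 24.1%) above 30, and without thinning in 73.9% below 5 and 62.2% above 30. Over the fine bins it was 245 CPM below 1 TAGLN UMI per 10000, 281 from 1 to 2, 262 from 2 to 5, 208 from 5 to 10, 128 from 10 to 20, 82.5 from 20 to 30 and 38.5 at 80 or more. NEFM was thus lower with more TAGLN from the bin 2 to 5 upwards, over bins in which the KRT18 level was first higher and, from 20 on, nearly level, while below 5 neither gene was lower in the second bin than in the first. Within phases the NEFM ratio above 30 to below 5 was 0.217 in G1, 0.273 in S and 0.145 in G2/M. The NEFM level differed more than that of NEFL, with 4.91 (4.81 to 5.02) NEFM UMIs per NEFL UMI below 5 and 2.92 (2.72 to 3.14) above 30.

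A low NEFM level was not particular to TAGLN-rich cells. Cluster 7, with 1158 cells and 35.3 CPM of TAGLN, the lowest of the 11 clusters, had 64.6 CPM of NEFM, 26.2 CPM of NEFL and 31.0 CPM of KRT18. Cluster 3, rich in TAGLN, had 46.4, 16.6 and 381 CPM of the same genes. In clusters 1, 2, 4, 5, 6 and 10, NEFM lay between 206 and 311 CPM, and cluster 7 therefore had low NEFM together with low KRT18. KRT8 was also lower there than over all kept cells, at 41.3 against 126 CPM, but KRT19 was not, at 30.7 against 25.8 CPM. Cluster 7 had a median of 13402 UMIs and 44.5% of its cells in G1.

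By phase, NEFM stood at 155 CPM in G1, 211 in S and 189.6 in G2/M, NEFL at 42.2, 45.4 and 36.2, and INA at 21.8, 21.1 and 14.2. The INA ratio of G2/M to G1 was 0.650 (0.606 to 0.698) in CPM and 1.07 in UMIs per cell, so it was lower in G2/M as a share of UMIs, also in thinned cells (log2 -0.69), but not per cell. KRT8 and KRT18 differed less between phases than between bands: KRT8 stood at 155, 113 and 126 CPM in G1, S and G2/M, and KRT18 at 165, 145 and 168 CPM. The direction for KRT18 was not stable: its G2/M over G1 ratio was 1.02 in the pooled counts, but between 0.758 and 0.944 within the 4 bands, and its log2 ratio was -0.48 in cells with 10000 to 40000 UMIs.

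In the 106 newborn neuron-like cells the filament genes stood in other proportions. INA stood at 224 CPM (202 to 249) against 18.2 CPM (17.7 to 18.7) in the other 13819 cells, a ratio of 12.3 (11.1 to 13.7). NEFL stood at 175 CPM (155 to 196) against 40.7 CPM (40.0 to 41.4), a ratio of 4.29 (3.80 to 4.83), and NEFM at 715 CPM (674 to 757) against 191 CPM (189 to 192), a ratio of 3.75 (3.53 to 3.97). INA thus had the largest of the 3 ratios, and NEFM, with the highest level in the other cells, the smallest. These cells held 0.518% of all UMIs but 6.04% of INA UMIs, 2.19% of NEFL UMIs and 1.91% of NEFM UMIs. At 5000 UMIs per cell, INA was found in 59.0% (49.0 to 68.5%) of neuron-like cells and 8.16% of the others, and NEFM in 74.3% (64.8 to 82.3%) and 46.7%. Unthinned, the INA shares were 77.4% and 28.1%, at median depths of 13414 and 17951 UMIs.

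The keratins and B-type lamins were lower in these cells. KRT18, at 12.3 CPM (7.49 to 18.9) against 159 CPM (158 to 161) in the others, had a ratio of 0.0770 (0.0471 to 0.119). KRT8 had 0.334 (0.259 to 0.422) and KRT19 0.403 (0.235 to 0.646), the latter from 17 UMIs in the neuron-like cells. The other cells include the keratin-rich bands. Against the cells below 5 alone, which hold 69.3 CPM of TAGLN beside 43.5 in the neuron-like cells, the log2 ratio was -0.57 for KRT8, short of 2-fold, and -2.36 for KRT18, while KRT19 stayed at least 2-fold lower. LMNB1, at 83.4 CPM (70.0 to 98.7), had a ratio of 0.464 (0.389 to 0.549) and LMNB2, at 20.9 CPM (14.4 to 29.1), 0.346 (0.240 to 0.484). Since 88.7% of neuron-like cells were called G1, the G1 levels of the other cells, 82.6 CPM for LMNB1 and 33.3 CPM for LMNB2, are the closer match: LMNB1 differed from that level by less than counting error and LMNB2 lay below it. LMNA stood at 101 CPM (85.8 to 117), an interval that holds its G1 level of 106 CPM in the other cells. Against all other cells LMNA had a ratio of 1.21 (1.03 to 1.41), but its log2 ratio turned from 0.28 to -0.12 in thinned cells and -0.28 per cell.

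In all, 3 of the 9 genes were at least 2-fold higher in neuron-like cells, where 11.5% of all tested genes were, and 5 were at least 2-fold lower, where 18.5% of all tested genes were. Against the cells below 5 alone, 4 were at least 2-fold lower, without KRT8, where 18.3% of all tested genes were. The median log2 ratio was -1.11 for the 9 genes and -0.10 for all tested genes, and median-ratio scaling left the counts at 3 and 5. Taking the cells by 4 of 12 markers instead of by cluster gave 3 higher and 3 lower, where 11.9% and 18% of all tested genes were. The group was defined by its own gene levels, so these are descriptions of that cluster. Of the other cytoplasmic filament genes, VIM stood at 323 CPM in neuron-like cells and 1740.2 in the others, and NES at 100.0 and 344. In the linker list, DST, which encodes the linker dystonin, stood at 514 CPM in neuron-like cells and 259 in the others, and PKP2 at 5.52 and 31.4.

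**Figure D5:**
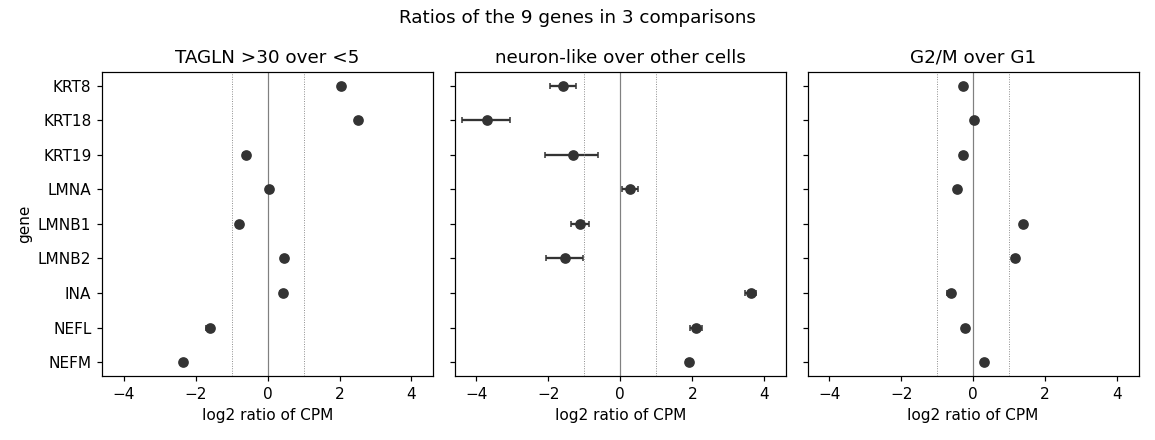
Log2 ratio of pooled CPM (x axis) of each gene (y axis) in 3 comparisons within the library, with exact conditional 95% intervals for counting error, a solid line at 0 and dotted lines at 2-fold. KRT8 and KRT18 lie beyond 2-fold to the right in the TAGLN comparison and to the left in the neuron-like comparison, NEFL and NEFM the other way round, and LMNB1 and LMNB2 are the genes beyond 2-fold in G2/M over G1.

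To place the patterns, levels over 13 groups (4 bands by 3 phases, and the neuron-like cells) were compared with those of 7690 genes at 20 CPM or more by the Pearson r of log2(CPM + 1). The points share 1 library and their depth differences, so r is a description. The genes most like KRT18 were IER3, an immediate early response gene (0.993), CDH6, which encodes a cadherin (0.990), and CNN2, which encodes the actin-binding protein calponin 2 (0.990). KRT8 had an r of 0.952 with KRT18, and KRT19 0.0838. NEFL and NEFM ran against KRT18, with -0.925 and -0.887.

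The genes most like LMNB1 were TMPO (0.996), itself among the genes that called the phases, CEP192, which encodes a centrosomal protein (0.990), and NSMCE4A, which encodes a subunit of the SMC5-SMC6 complex (0.989). LMNB1 and LMNA had an r of -0.885 with each other. Those most like LMNA were MAX, which encodes the partner of MYC (0.955), VGLL4 (0.903), which encodes a cofactor of TEAD proteins, and WDR45 (0.902), which encodes an autophagy protein. Those most like INA were DCC, which encodes the netrin receptor (0.962), CKB, which encodes brain creatine kinase (0.957), and CORO2B, which encodes a coronin (0.954). INA had an r of 0.619 with NEFL and 0.368 with NEFM. INA stood at 224 CPM in the neuron-like cells and 18.2 CPM in all other cells, so that 1 group weighs heavily in its r values.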

How the data were processed

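Single-cell 3′ RNA-seq of 1 library (hHAR123, H9 cells differentiated towards NPCs) was analysed. The authors deposited raw UMI counts per gene and barcode, without normalization. Per the submitters' processing notes, Cell Ranger 7.0.1 and Seurat 4.4.0 were used with GRCh38. The authors state default parameters for Cell Ranger, and the annotation version and strand setting are not named. The other genotypes of the study were not analysed here.

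Barcodes with 2000 to 10000 genes and a mitochondrial share below 0.1 were kept. Cells were clustered with the 9 genes left out (2000 variable genes, 30 components, 20 neighbours, Leiden resolution 0.5; scanpy 1.11.5, leidenalg 0.10.2, igraph 0.11.9, scikit-learn 1.9.0, anndata 0.12.19, numpy 2.4.6, scipy 1.17.1, pandas 2.3.3, Python 3.11.15, matplotlib 3.10.9). A cluster was called newborn neuron-like with at least 3 markers at 20 CPM and 3-fold the other cells. Its cells were left out of the TAGLN bands and phases. Phases came from the S and G2/M lists shipped with Seurat. A cell was called G1 when neither score passed 0, so the call does not tell G1 from cells out of the cycle. Scrublet (expected rate 8%) marked 222 of 14726 barcodes (1.51%) as doublets with the random seed used and 1 and 224 with the other seeds tried, so its threshold was not stable. No barcode was removed as a doublet.

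Levels are summed UMIs per 1000000 UMIs of a group, with exact 95% Poisson intervals. Ratios have exact conditional intervals and shares of cells have Clopper-Pearson intervals. PCR duplicates are collapsed by UMIs, and the intervals cover counting error only. For shares, each cell was thinned to 5000 UMIs, which left out 28 of 13925 kept cells (24 below 5, 0 from 5 to 10, 1 from 10 to 30, 2 above 30 and 1 neuron-like). Genes were counted past 2-fold among the 16780 genes with at least 200 UMIs in kept cells, and all 9 members passed that minimum. With 1 library and no replicate, no statistical test was made. The code was tested on simulated data.

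The 9 genes, the bands and the gene lists were chosen with earlier results of these data known. Named list genes were those with the 2 largest and 2 smallest log2 ratios of a list in a comparison. Only genes at 20 CPM or more in at least 1 of the 2 groups compared were eligible. LBR, SUN2, SYNM, BFSP1, NEFH, EPPK1, SOX2, LIN28A, DPPA4, POU5F1, NANOG, CLDN3, CLDN4, RAB25, CDH1, EPCAM, TWIST1, LUM and COL1A2 were named after their values were seen. The 3 genes most like KRT18, LMNA, LMNB1 and INA were named by their correlation. Spans came from GENCODE 44 and promoters from RefSeq on GRCh38.p14, where 5 of the 9 genes had at least 1 entry (8 entries in all).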

Additional observations from a re-analysis of the deposited data

How the results depend on the processing

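With 1 library, no replicate could be left out. No paired analysis was possible because there is 1 sample and no test. Over 387 values of single genes under the alternatives (other scaling, a mean over cells, UMIs per cell, thinning, a 10000 to 40000 UMI window, single phases or bands, other doublet, mitochondrial, phase or naming choices), 363 kept the direction of the pooled ratio and 24 did not. Of the latter, 10 came from UMIs per cell, which shifts every gene by 1 depth factor, and 14 from the 351 values of the other settings. The exclusion of cells with few mitochondrial UMIs was chosen after seeing the data. For TAGLN above 30 over below 5, the 2 members at least 2-fold higher became 5 in UMIs per cell, where 45.8% of all tested genes passed, and the 2 at least 2-fold lower became 1 in UMIs per cell (3.72% of all genes), 1 in the 10000 to 40000 UMI window (16.9%), 4 at a 1.5-fold limit (38.4%) and 3, with LMNB1, within G1 (23.3%). For neuron-like cells, the 5 lower members became 3 when the cells were taken by 4 of 12 markers instead of by cluster (18% of all genes) and 4, without KRT8, against the cells below 5 alone (18.3%). For G2/M over G1, the 2 higher members became 3, with NEFM, in UMIs per cell (19.4%) and the 0 lower members became 1 at a 1.5-fold limit (11% of all genes), and for S over G1 the 1 higher member became 2 in UMIs per cell (7.07%) and 2 at a 1.5-fold limit (9.72%). With a minimum of 50 UMIs, the share of all genes at least 2-fold lower was 4.96% instead of 2.96% in G2/M and 2.87% instead of 1.41% in S. Depth limits KRT19 and INA most among the members: in cells thinned to 5000 UMIs they were found in 12.7% and 8.16% of cells outside the neuron-like group.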

Other observations

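Within the band above 30, 91 cells kept a UMI of WLS, which encodes a carrier of Wnt proteins, after thinning to 5000 UMIs, and 1321 did not. The median depths of these cells were 55736 and 40657 UMIs. The ratio of the former to the latter was 1.48 (1.42 to 1.54) for KRT18, 1.24 (1.17 to 1.30) for KRT8 and 1.34 (1.23 to 1.47) for LMNA, and 0.472 (0.347 to 0.628) for KRT19, 0.785 (0.715 to 0.861) for LMNB1 and 0.427 (0.351 to 0.516) for NEFM. LMNB2 had 0.913 (0.816 to 1.02), INA 0.936 (0.761 to 1.14) and NEFL 0.881 (0.688 to 1.11), intervals that hold 1. The cells with a WLS UMI had less TAGLN than those without, at 4786 CPM against 5817. The share of cells in G1 was 26.4% with a WLS UMI and 18.5% without.

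Cluster 10, with 112 cells of which 85.7% were called G1, combined a low LMNB1 level (80.0 CPM) and LMNB2 level (22.0 CPM) with 109 CPM of LMNA, 80.0 CPM of NEFL and 18.6 CPM of INA. Its lamin levels were close to those of the neuron-like cells, at 83.4, 20.9 and 101 CPM, while its INA level lay within the range of clusters 1 to 9. The cells called G1 outside the neuron-like group were also close in LMNB1 (82.6 CPM) and LMNA (106 CPM), but not in LMNB2 (33.3 CPM). It received no name.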
